A study of Mus musculus with 12 samples.

Results

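The growth hormone and IGF1 axis was followed in mouse liver through 10 genes of the 54532 counted, chosen by gene name: the growth hormone receptor Ghr, the kinase Jak2, the transcription factors Stat5a and Stat5b, the feedback inhibitors Socs2 and Cish, the hormone Igf1, and the genes of its circulating partners, Igfals, Igfbp2 and Igfbp3. All 10 had enough counts to be tested in every comparison. RNA was sequenced from 12 livers of male mice, each carrying PPARγflox/flox alleles. Each mouse was injected at 8 weeks of age with an AAV8 virus, and the TBG promoter limited expression of its transgene to hepatocytes. The virus encoded Cre recombinase in the PPARγ-KO groups and eGFP in the wild-type groups, so the controls also carried the floxed alleles and a virus. All mice were fed the fast food diet (FFD), which held 21% fat, 0.2% cholesterol and 34% sucrose by weight and was given with fructose and glucose in the drinking water, for 2 or 5 months. Each genotype had 3 libraries at each time. No chow-fed libraries were analysed here, and mice fed for 5 months were also older, so diet time and age cannot be told apart.

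Growth hormone from the pituitary binds its receptor on hepatocytes and activates the kinase JAK2, which phosphorylates STAT5A and STAT5B. These enter the nucleus and activate Igf1, Igfals and the inhibitors Socs2 and Cish, whose products dampen the receptor's signal. Liver-made IGF1 circulates bound to IGFBP3 and the acid-labile subunit encoded by Igfals, or to IGFBP2, a binding protein that hepatocytes also secrete and whose level in blood falls when growth hormone is high. The pulsed growth hormone secretion of male rodents, acting through STAT5B, also sets the sex bias of many liver genes.

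The libraries held 16367775 to 27452284 counts on 20072 to 21966 genes, and mitochondrial genes took 4.702% to 6.437% of them. Among replicates, wild-type replicate 1 at 2 months stood furthest from the others of its group. Levels are given as normalized CPM (counts scaled to the TMM-adjusted library size), and a gene was called when its edgeR quasi-likelihood p, with Benjamini-Hochberg adjustment across every gene in the test, was under 0.05. Pparg itself, the gene targeted for deletion, was higher and not lower in the PPARγ-KO-labelled libraries, with 50.4, 66.5 and 52.0 CPM at 2 months where wild-type had 38.8, 41.4 and 37.6, and 86.5, 92.9 and 75.0 CPM at 5 months where wild-type had 36.9, 41.4 and 37.1. It was called at 5 months under all 13 alternatives, while its call at 2 months (edgeR adjusted p = 0.0309) was lost with library size alone and without any one library but wild-type replicate 1. The counts are per gene, so the deleted exons were not seen apart, and every direction below follows the labels of the libraries. Markers of hepatocytes were abundant in all libraries.

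STAT5 acts through short motifs in the promoters of its targets and at more distant sites. RefSeq windows of the promoters (GRCm38.p6, from 250 bases before to 50 bases after each start) were available here for 9 of the 10 genes, 15 windows in all. No window was held for Socs2. The STAT5 motif TTCNNNGAA, searched on both strands (its reverse complement has the same letters), was found in 3 windows of 2 genes, Cish and Igfals. These windows are shown because they held the motif, which is in capitals. Both genes fell between 2 and 5 months in the PPARγ-KO-labelled libraries, as did Ghr, Igf1 and Igfbp2, whose windows did not hold it. The Cish window lies at chr9:107296409-107296708 and the Igfals windows, of 2 alternative starts, at chr17:24877594-24877893 and chr17:24877981-24878280, all on the + strand.
Cish: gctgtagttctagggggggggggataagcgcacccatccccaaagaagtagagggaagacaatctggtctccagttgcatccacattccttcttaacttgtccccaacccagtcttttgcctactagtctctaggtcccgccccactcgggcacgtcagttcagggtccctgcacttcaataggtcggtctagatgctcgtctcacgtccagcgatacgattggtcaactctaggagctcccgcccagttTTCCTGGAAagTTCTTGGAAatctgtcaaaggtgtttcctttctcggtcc
Igfals, first start: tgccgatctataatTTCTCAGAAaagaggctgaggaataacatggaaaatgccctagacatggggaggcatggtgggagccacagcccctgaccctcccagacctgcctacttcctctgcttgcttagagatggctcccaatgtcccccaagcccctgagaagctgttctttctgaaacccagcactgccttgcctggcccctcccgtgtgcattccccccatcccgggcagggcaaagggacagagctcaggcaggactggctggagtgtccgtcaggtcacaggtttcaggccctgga
Igfals, second start: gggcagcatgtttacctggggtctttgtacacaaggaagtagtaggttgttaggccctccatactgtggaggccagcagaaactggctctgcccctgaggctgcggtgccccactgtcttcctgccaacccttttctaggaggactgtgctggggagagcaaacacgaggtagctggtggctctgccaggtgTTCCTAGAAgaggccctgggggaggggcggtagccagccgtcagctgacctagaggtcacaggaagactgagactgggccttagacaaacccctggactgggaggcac
The Cish window held the motif 2 times, centred 4 and 15 bases after the start. In Igfals it was centred 232 bases before the first start and 54 bases before the second, and both of these starts lie upstream of the gene start in the deposited annotation (24878770 on chromosome 17). The remaining Igfals window, at chr17:24878497-24878796, spans that gene start and did not hold the motif. Of all 32851 windows, 8.3% held the motif at least once and 0.457% at least 2 times. The PPAR response element, a direct repeat of AGGTCA with 1 base between the copies, was in 0.0396% of all windows and in none of the 15. A match of letters is a description of the window and not a measured site.

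Compared per kilobase of gene model, Igfbp2 had the highest level of the 10 genes in every group (72.97 to 191.0 CPM per kb as group means), followed by Ghr, Igf1 and Igfals. Stat5b and Igfbp3 came next, then Jak2 and Stat5a, and Socs2 and Cish had the lowest levels, between 0.179 and 0.854 CPM per kb. Neighbours in this order often could not be separated. Igfbp2 overlapped Ghr in wild-type at 2 months and in the PPARγ-KO-labelled libraries at 5 months, and Cish overlapped Socs2 in every group but wild-type at 5 months. Igf1 and Igfals overlapped in wild-type at 2 months, Stat5b and Igfbp3 in both wild-type groups, and Igfals and Igfbp3 in wild-type at 5 months.

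**Figure D1:**
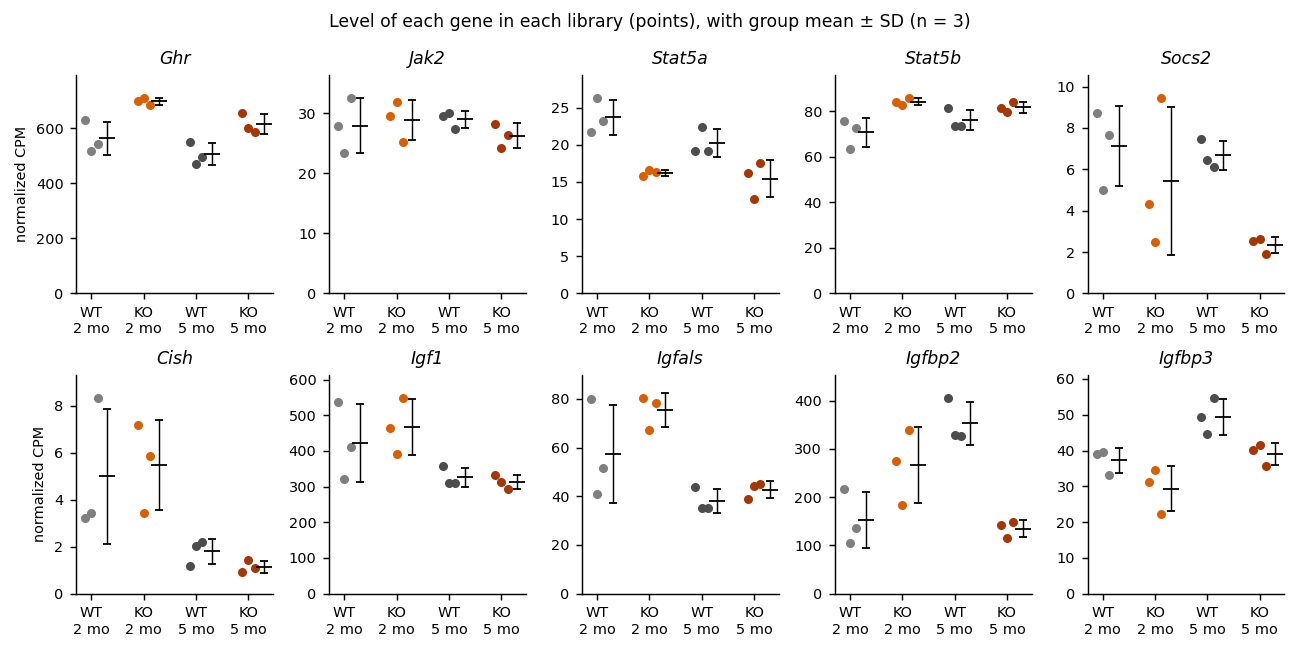
Normalized CPM (vertical axis, from 0, a scale of its own for each gene) of the 10 genes in each of the 12 libraries; each point is 1 library, grey for wild-type and orange for the PPARγ-KO-labelled libraries at 2 and 5 months (mo), with the group mean and SD (n = 3) beside the points. Igfbp2 is highest in wild-type at 5 months, from 325.6 to 404.7, and Socs2 lowest in the PPARγ-KO-labelled libraries at 5 months, from 1.89 to 2.61.

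At 2 months 1 of the 10 genes was called between the genotypes, Stat5a, which was lower in the PPARγ-KO-labelled libraries. The share called among all 14573 genes tested was 3.56%, or 1.78% lower and 1.78% higher. The groups did not overlap in 3 of the 10 genes, Ghr, Stat5a and Stat5b, where 24.1% of all genes tested had no overlap. The median log2 fold change of the 10 genes was 0.14, against -0.00483 for all genes tested.

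More genes were called at 5 months. Socs2, Igfbp2, Igfbp3 and Stat5a were lower in the PPARγ-KO-labelled libraries and Ghr was higher, 5 of 10 genes against 18.4% of all 14138 genes tested (8.9% higher and 9.51% lower). The study filtered genes for pathway analysis by a 1.3-fold change on top of an unadjusted p under 0.05. By both, 3 of the 10 (Socs2, Igfbp2 and Stat5a) were called, all lower, against 17% of all genes tested, while Ghr (unadjusted p of the edgeR fit 0.00216) and Igfbp3 (0.00199) met the p alone. The groups did not overlap in the 5 genes called by edgeR, against 34.8% of all genes tested. Igf1 itself was not called at either time, and its groups overlapped. The median log2 fold change of the 10 genes was -0.23 and that of all genes tested -0.00577.

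**Figure D2:**
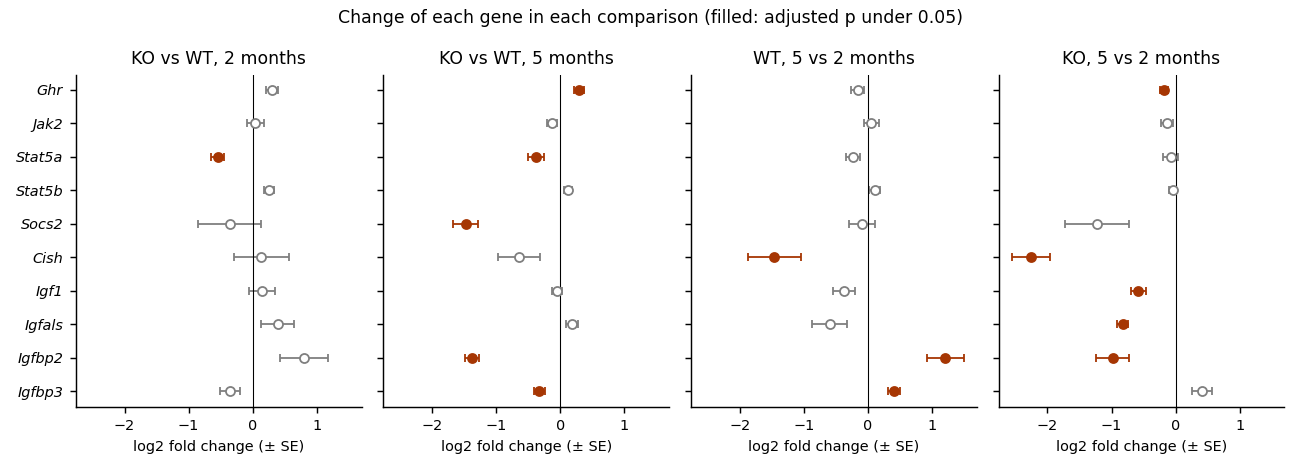
Log2 fold change with its SE (horizontal axis) of each gene in the genotype comparisons at 2 and 5 months and in each genotype over time; filled points have an edgeR adjusted p under 0.05 and open points do not. Between the genotypes 1 gene is filled at 2 months and 5 at 5 months, and Igfbp2 lies on opposite sides of 0 in wild-type and in the PPARγ-KO-labelled libraries over time.

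Ghr (ENSMUSG00000055737, chr15:3317760-3583492, - strand of mm10) encodes the receptor that starts the pathway. At 2 months it had 631.7, 518.0 and 544.2 CPM in wild-type libraries and 699.0, 711.0 and 686.4 in the PPARγ-KO-labelled libraries. The groups did not overlap, and wild-type replicate 1 lay closest to the other group. The means were 564.7 ± 59.6 and 698.8 ± 12.3 CPM (SD, n = 3 each), with a log2 fold change of 0.31 (standard error 0.0927, edgeR adjusted p = 0.104) that did not pass the threshold. It passed with DESeq2 (adjusted p = 0.0316), and by edgeR without the filter on low counts (adjusted p = 0.0056), with all 12 libraries in one fit (0.0374) and without wild-type replicate 1 (0.00344). At 5 months the levels were 549.3, 471.0 and 497.1 in wild-type and 655.9, 601.4 and 588.1 in the PPARγ-KO-labelled libraries, again without overlap. The log2 fold change of 0.29 (standard error 0.0766, edgeR adjusted p = 0.0177) passed, but not when wild-type replicate 2 (0.110) or 3 (0.0785) or PPARγ-KO replicate 1 (0.0698) was left out.

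Jak2 (ENSMUSG00000024789, chr19:29251828-29313080, + strand), the kinase bound to the receptor, stayed between 23.4 and 32.5 CPM in all 12 libraries, and its groups overlapped in every comparison. The log2 fold change was 0.04 at 2 months (standard error 0.132, 95% interval -0.22 to 0.30), a sign that turned to -0.03 with library size alone, and -0.13 at 5 months (standard error 0.0803, 95% interval -0.29 to 0.03). The edgeR adjusted p was 0.901 and 0.314.

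Stat5a and Stat5b encode closely related proteins and lie beside each other on chromosome 11. Stat5a (ENSMUSG00000004043, chr11:100859351-100885169, + strand) had 21.7, 26.3 and 23.2 CPM in wild-type libraries and 15.8, 16.6 and 16.3 in those labelled PPARγ-KO at 2 months. All 3 PPARγ-KO-labelled libraries lay below all 3 wild-type libraries. Its log2 fold change was -0.55 (standard error 0.099, edgeR adjusted p = 0.0193). Leaving out wild-type replicate 2 or 3 or any PPARγ-KO replicate took the edgeR adjusted p past the threshold, to between 0.0547 and 0.0863. By 5 months the levels were 19.1, 22.4 and 19.1 in wild-type and 16.1, 12.7 and 17.5 in the PPARγ-KO-labelled libraries, and the groups were again apart. The log2 fold change of -0.38 (standard error 0.121, edgeR adjusted p = 0.0448) lost its call with DESeq2 (adjusted p = 0.0623) and on leaving out replicate 2 or 3 of wild-type or replicate 1 or 2 of the PPARγ-KO-labelled group, where the edgeR adjusted p ran from 0.0659 to 0.185.

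Stat5b (ENSMUSG00000020919, chr11:100780731-100850724, - strand), the main STAT5 of hepatocytes, had 75.8, 63.5 and 72.7 CPM in wild-type and 83.9, 82.6 and 85.8 in the PPARγ-KO-labelled libraries at 2 months. The groups did not overlap, but the log2 fold change of 0.25 (standard error 0.0788, edgeR adjusted p = 0.118) did not pass. It did without the filter (edgeR adjusted p = 0.0478), with all 12 libraries in one fit (0.0413) and without wild-type replicate 1 (0.0311). At 5 months they overlapped, from 73.4 to 81.2 against 79.7 to 84.2 CPM, with a log2 fold change of 0.11 (standard error 0.0641, 95% interval -0.01 to 0.24, edgeR adjusted p = 0.259). The balance of both genes within a library does not depend on the scaling. Per 100 Stat5b counts, Stat5a had 28.6, 41.4 and 32.0 counts in wild-type and 18.8, 20.1 and 19.0 in the PPARγ-KO-labelled libraries at 2 months. The corresponding values at 5 months were 23.6, 30.6 and 26.0 against 19.9, 16.0 and 20.8. The PPARγ-KO-labelled libraries lay below all wild-type libraries at both times, each with a two-sided exact permutation p of 0.1, the smallest that 3 against 3 libraries allow. This ratio and the one below were chosen after the values were seen. Stat5a also shares bases with Stat3 on the opposite strand (1588 to 3127 counts per library), and reads can be shared between both Stat5 genes, so their counts are uncertain, since the strand used in counting is not given in the sources used here.

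**Figure D3:**
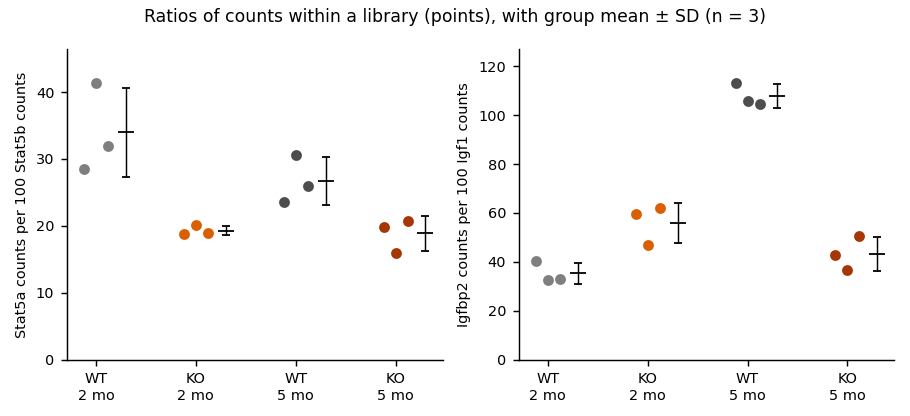
Counts of Stat5a per 100 counts of Stat5b (left) and of Igfbp2 per 100 counts of Igf1 (right) in each library (points), with group mean and SD (n = 3). Stat5a per Stat5b is lower in the PPARγ-KO-labelled libraries at both times, while Igfbp2 per Igf1 is higher at 2 months (means 56.0 against 35.4) and lower at 5 months (43.2 against 107.9).

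Socs2 (ENSMUSG00000020027, chr10:95385362-95417180, - strand) is induced by STAT5 and restrains growth hormone signaling. At 2 months it had 8.73, 4.99 and 7.66 CPM in wild-type and 4.35, 2.51 and 9.45 in the PPARγ-KO-labelled libraries. These overlapped, with the highest and the lowest level both in the PPARγ-KO-labelled libraries, and the log2 fold change was -0.36 (standard error 0.489, 95% interval -1.32 to 0.60, edgeR adjusted p = 0.759). Over the 13 alternatives this value ran from -1.05, without PPARγ-KO replicate 3, to -0.03, without PPARγ-KO replicate 2, and was never called. At 5 months it had 7.46, 6.47 and 6.11 CPM in wild-type and 2.55, 2.61 and 1.89 in the PPARγ-KO-labelled libraries, from 126, 111 and 117 counts against 54, 51 and 30. All 3 PPARγ-KO-labelled libraries were below every wild-type library. Relative to wild-type, Socs2 fell by 1.48 on the log2 scale (standard error 0.188, edgeR adjusted p = 1.71e-04), the largest difference of the 10 genes at this time. The call held under all 13 alternatives, with log2 fold changes from -1.56 to -1.36 and an adjusted p of at most 0.0360.

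Cish (ENSMUSG00000032578, chr9:107296026-107302784, + strand), whose promoter with paired STAT5 motifs is printed above, blocks STAT5 docking at cytokine receptors. At 2 months its levels were 3.22, 3.45 and 8.32 CPM in wild-type and 7.19, 3.42 and 5.84 in the PPARγ-KO-labelled libraries. At 5 months they were 1.19, 2.04 and 2.19 in wild-type and 0.944, 1.44 and 1.07 in the PPARγ-KO-labelled libraries, from 17 to 42 counts per library. The groups overlapped at both times. The log2 fold change was 0.14 at 2 months (standard error 0.432, edgeR adjusted p = 0.905), where its sign turned without wild-type replicate 1 or 2 or PPARγ-KO replicate 1. At 5 months it was -0.64 (standard error 0.322, 95% interval -1.27 to -0.01, unadjusted p of the edgeR fit 0.0675, edgeR adjusted p = 0.199).

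Igf1 (ENSMUSG00000020053, chr10:87858265-87937042, + strand) encodes the growth factor that carries much of growth hormone's effect on the body. Its antisense gene Igf1os had 7 to 28 counts per library. At 2 months it had 537.3, 320.5 and 409.7 CPM in wild-type and 464.1, 391.2 and 547.6 in the PPARγ-KO-labelled libraries, and at 5 months 357.1, 310.3 and 311.1 against 331.9, 313.6 and 293.2. The groups overlapped at both times, and the spread was wider at 2 months than at 5 months in both genotypes. Its log2 fold change was 0.15 at 2 months (standard error 0.204, 95% interval -0.25 to 0.55, edgeR adjusted p = 0.763), which fell to -0.02 without wild-type replicate 2. At 5 months it was -0.05 (standard error 0.0752, 95% interval -0.20 to 0.10, edgeR adjusted p = 0.715), and it became 0.02 on leaving out wild-type replicate 1.

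Igfals (ENSMUSG00000046070, chr17:24878770-24882008, + strand) encodes the acid-labile subunit, made almost wholly by hepatocytes under growth hormone. It had 79.9, 40.8 and 51.6 CPM in wild-type and 80.3, 67.3 and 78.3 in the PPARγ-KO-labelled libraries at 2 months, with a log2 fold change of 0.39 (standard error 0.257, edgeR adjusted p = 0.494). Wild-type replicate 1 lay within the other group. Without it the log2 fold change was 0.71 (edgeR adjusted p = 0.00459), past the threshold. Levels at 5 months were 43.8, 35.3 and 35.1 against 38.8, 44.3 and 45.1, and the log2 fold change was 0.18 (standard error 0.0931, edgeR adjusted p = 0.222). Without wild-type replicate 1 it was 0.29 and passed (edgeR adjusted p = 0.0223).

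Igfbp2 (ENSMUSG00000039323, chr1:72824503-72852474, + strand) encodes a binding protein that hepatocytes secrete. At 2 months it had 216.8, 104.7 and 135.5 CPM in wild-type and 275.6, 182.7 and 339.1 in the PPARγ-KO-labelled libraries. The groups overlapped, and the log2 fold change was 0.80 (standard error 0.369, 95% interval 0.08 to 1.53, unadjusted p of the edgeR fit 0.0834, edgeR adjusted p = 0.342). At 5 months it had 404.7, 327.9 and 325.6 CPM in wild-type and 141.4, 115.0 and 147.9 in the PPARγ-KO-labelled libraries, with a wide gap between the groups. Relative to wild-type, Igfbp2 fell by 1.38 on the log2 scale (standard error 0.110, edgeR adjusted p = 2.06e-05), and the call held under all 13 alternatives with log2 fold changes from -1.45 to -1.27 and an adjusted p of at most 0.0173. Its ratio to Igf1 within a library parted the genotypes at both times, in opposite directions. Per 100 Igf1 counts, Igfbp2 had 40.4, 32.7 and 33.1 counts in wild-type and 59.4, 46.7 and 61.9 in the PPARγ-KO-labelled libraries at 2 months. At 5 months it had 113.3, 105.7 and 104.6 against 42.6, 36.7 and 50.4. The two-sided exact permutation p was 0.1 at each time, the smallest possible.

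Igfbp3 (ENSMUSG00000020427, chr11:7206086-7213923, - strand), the main carrier of IGF1 in blood, is made in liver largely by cells other than hepatocytes. At 2 months it had 38.9, 39.7 and 33.1 CPM in wild-type and 31.2, 34.6 and 22.4 in the PPARγ-KO-labelled libraries, with overlap and a log2 fold change of -0.35 (standard error 0.156, edgeR adjusted p = 0.279), which passed without the filter (edgeR adjusted p = 0.0134). Levels at 5 months were 49.2, 44.6 and 54.6 against 40.1, 41.4 and 35.6, without overlap. The log2 fold change of -0.33 (standard error 0.0855, edgeR adjusted p = 0.0168) was no longer called in a joint fit of the 12 libraries (edgeR adjusted p = 0.125) or when wild-type replicate 3 (0.0993) or PPARγ-KO replicate 3 (0.0815) was left out.

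Markers of several cell types moved with the genotypes. Of all genes tested, 3.56% were called at 2 months (1.78% lower and 1.78% higher) and 18.4% at 5 months (9.51% lower and 8.9% higher). In whole liver, fewer cells of a type and less RNA per cell cannot be told apart. The summed level of 8 hepatocyte markers was 55630 to 66620 CPM in wild-type and 72720 to 85170 in the PPARγ-KO-labelled libraries at 2 months, and 54270 to 59610 against 74010 to 85310 at 5 months, with 1 of the 8 genes called higher at each time, Ahsg at 2 months and Alb at 5 months. Alb, the gene of serum albumin, made up 74.8% of the difference between the mean sums at 2 months and 92.8% at 5 months, when Apoa1 had group means of 7254 CPM in wild-type and 7132 in the PPARγ-KO-labelled libraries. The sum of 8 macrophage markers was 404.5 to 528.0 CPM against 449.0 to 514.0 at 2 months, with 1 of 8 called higher, and 1093 to 1200 against 508.6 to 662.9 at 5 months, with 7 of 8 called lower. The calls of Adgre1 and Timd4 at 5 months were lost on leaving out some single libraries, and those of the other 5 held under all 13 alternatives. The stellate cell markers summed to 485.7 to 548.4 against 369.7 to 388.3 at 2 months (1 of 8 called lower) and 504.5 to 611.9 against 423.3 to 474.8 at 5 months (3 of 8 called lower). The endothelial markers summed to 434.0 to 515.1 against 454.1 to 478.0 at 2 months (none of 8 called by edgeR, 2 at an unadjusted p under 0.05) and 340.9 to 352.8 against 300.3 to 325.6 at 5 months (3 of 8 called lower). None of the markers of these 4 types was at 0 in all libraries of a group. At 5 months the call was passed by 1 of 5 cholangiocyte markers (higher) and by 2 of 3 tested neutrophil and 2 of 3 tested B cell markers (lower), while none of 4 tested T and NK cell markers was called by edgeR and 1 had an unadjusted p under 0.05. The part of these levels in the differences of Igfbp3, Igfbp2 or Socs2 was not tested.

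**Figure D4:**
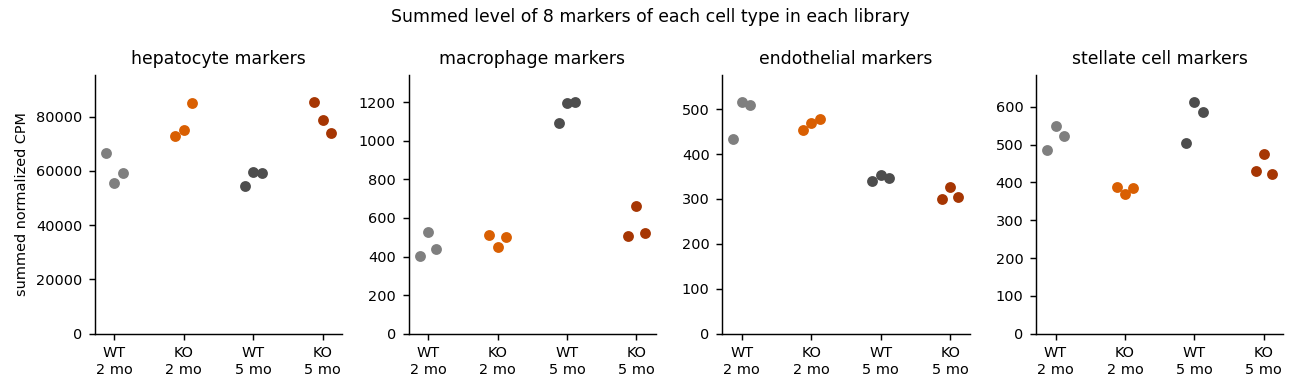
Summed normalized CPM (vertical axis, from 0) of 8 markers of each of hepatocytes, macrophages, endothelial cells and stellate cells in each library (points), by genotype and time. The macrophage sum is 1093 to 1200 in wild-type at 5 months and at most 662.9 in the other 9 libraries, and the hepatocyte sum, in which Alb is the largest term, is higher in the PPARγ-KO-labelled libraries at both times.

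The comparisons over time share their libraries with the comparisons of genotype, so they are not independent of them, and time may stand for a batch, since the sources used here do not say whether both times were processed together. Most genes tested had no overlap between the times, so changes over time in the axis stand against a background of 46.4% of genes called in wild-type (23.8% higher and 22.7% lower) and 44.9% in the PPARγ-KO-labelled libraries (22.7% higher and 22.2% lower). In wild-type, 3 of the 10 genes were called between 2 and 5 months, Igfbp2 and Igfbp3 higher and Cish lower, and these 3 had no overlap, against 56.7% of all genes tested. In the PPARγ-KO-labelled libraries, 5 were called, all lower at 5 months: Ghr, Cish, Igf1, Igfals and Igfbp2. There, 6 of the 10 genes had no overlap, against 55.6% of all genes tested. Without regard to direction, both counts of called genes are near or below these shares, and the 5 called lower in the PPARγ-KO-labelled libraries stand against 22.2% of all genes called lower.

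The largest fall over time was that of Cish. It fell by 2.26 on the log2 scale in the PPARγ-KO-labelled libraries (standard error 0.303, edgeR adjusted p = 1.53e-04), a call that held under all 13 alternatives. In wild-type it fell by 1.46 (standard error 0.418, edgeR adjusted p = 0.0195). Without wild-type replicate 3 at 2 months, its highest library, the log2 fold change in wild-type was -0.88, and the call was lost without wild-type replicate 1 (edgeR adjusted p = 0.0745) or 2 (0.0537) at 5 months. Socs2, the other inhibitor, had log2 fold changes of -0.09 in wild-type (standard error 0.209, edgeR adjusted p = 0.736) and -1.23 in the PPARγ-KO-labelled libraries (standard error 0.503, edgeR adjusted p = 0.0938). The latter was called with DESeq2 (adjusted p = 0.00966), and by edgeR without the filter (adjusted p = 0.0053), with all 12 libraries in one fit (0.0334) and without PPARγ-KO replicate 2 at 2 months (0.00537, log2 fold change -1.56), and was -0.54 without PPARγ-KO replicate 3 at 2 months.

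Igf1 fell over time in the PPARγ-KO-labelled libraries by 0.58 on the log2 scale (standard error 0.114, edgeR adjusted p = 0.00393) and Igfals by 0.82 (standard error 0.0853, edgeR adjusted p = 2.61e-05). Both calls held under all 13 alternatives. In wild-type, Igf1 had a log2 fold change of -0.38 (standard error 0.174, edgeR adjusted p = 0.112) and Igfals of -0.60 (standard error 0.272, edgeR adjusted p = 0.131), neither past the threshold. Scaling by library size alone took both past it (edgeR adjusted p = 0.033 and 0.0474), as did leaving out wild-type replicate 2 at 2 months (0.00794 and 0.0236). Igf1 also passed without the filter (0.00136), and Igfals with DESeq2 (adjusted p = 0.0183) and with all 12 libraries in one fit (edgeR adjusted p = 0.0457). Ghr fell by 0.19 in the PPARγ-KO-labelled libraries (standard error 0.0622, edgeR adjusted p = 0.0299). This call was lost in the fit of all 12 libraries and without PPARγ-KO replicate 1 or 2 at 2 months or replicate 2 or 3 at 5 months, where the edgeR adjusted p ran from 0.0788 to 0.124. In wild-type its log2 fold change was -0.16 (standard error 0.102, edgeR adjusted p = 0.222), and -0.24 with library size alone, which passed (edgeR adjusted p = 0.0324).

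Among the binding proteins, Igfbp2 rose over time in wild-type by 1.21 on the log2 scale (standard error 0.288, edgeR adjusted p = 0.0188) and fell in the PPARγ-KO-labelled libraries by 0.98 (standard error 0.262, edgeR adjusted p = 0.0362). The rise lost its call without a filter on low counts (edgeR adjusted p = 0.0729), without wild-type replicate 3 at 2 months (0.051) and without wild-type replicate 1 at 5 months (0.0675). The fall lost it without the filter and without PPARγ-KO replicate 1 or 3 at 2 months or any PPARγ-KO replicate at 5 months, where the edgeR adjusted p ran from 0.0554 to 0.109. Igfbp3 rose in wild-type by 0.41 (standard error 0.0977, edgeR adjusted p = 0.00588) under all 13 alternatives, and in the PPARγ-KO-labelled libraries its log2 fold change was also 0.41 (standard error 0.156, edgeR adjusted p = 0.0655). The latter was called with DESeq2 (adjusted p = 0.0187), and by edgeR without the filter (adjusted p = 1.99e-05), with the replicate number as a block (0.00921), with all 12 libraries in one fit (0.0278) and without PPARγ-KO replicate 2 at 2 months (0.014). The log2 fold changes over time of Jak2, Stat5a and Stat5b lay between -0.23 and 0.10 and none was called, but Stat5a in wild-type passed without wild-type replicate 1 at 2 months (log2 fold change -0.29, edgeR adjusted p = 0.0465).

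The difference between the genotype effects at 5 and at 2 months was tested in a fit of all 12 libraries. Igfbp2 was the 1 gene of the 10 called, where 1.57% of 15127 genes tested were (0.912% lower and 0.661% higher). Its ratio of PPARγ-KO-labelled libraries to wild-type was lower at 5 than at 2 months by a log2 difference of -2.19 (standard error 0.421, edgeR adjusted p = 0.0453). The call rested on most libraries: it was lost without any one of 10 of the 12, all but wild-type replicate 1 and PPARγ-KO replicate 2 at 2 months, with an edgeR adjusted p of up to 0.112. For Socs2 the log2 difference was -1.14 (standard error 0.561, 95% interval -2.24 to -0.04, unadjusted p of the edgeR fit 0.0676, edgeR adjusted p = 0.379), so its genotype effect was not shown to differ between the times. For Stat5a it was 0.16 (standard error 0.163, edgeR adjusted p = 0.714) and for Ghr -0.02 (standard error 0.121, edgeR adjusted p = 0.952).

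At 2 months the replicates varied together across genotypes. Replicate 2 was the lowest library of its group in both genotypes for Stat5b, Socs2, Igf1, Igfals and Igfbp2, 5 of the 10 genes, where 10.9% of all genes tested had replicate 2 lowest in both. It was the highest in both for Stat5a and Igfbp3, 2 of the 10 genes against 11.2%. Of the 19 male-biased liver genes tested, 12 were lowest in replicate 2 in both genotypes, and of the 9 female-biased genes tested 6 were highest there in both. These tallies were made, and the next genes picked, after the values were seen. Cyp2b9, a cytochrome P450 more abundant in female liver, had 202.9 and 198.6 CPM in replicate 2 of wild-type and of PPARγ-KO-labelled libraries, and 47.0, 40.7, 34.8 and 18.3 in the other 4 libraries. Slco1a1, an organic anion transporter more abundant in male liver, was lowest in replicate 2 of each genotype, with 40.9 and 289.8 CPM against 263.6 and 164.9 in the other wild-type libraries and 535.5 and 484.5 in the other PPARγ-KO-labelled libraries. Replicate 1 was the highest library in both genotypes for 10 of the 19 male-biased genes at 2 months, against 13% of all genes tested. At 5 months it was highest in both for 10 of 18 male-biased genes tested, against 12.3%. It was lowest in both at 5 months for 4 of 9 female-biased genes, against 11.3%. Of the 10 genes of the axis, 2 were highest and 1 lowest in replicate 1 of both at 5 months. These tallies were also made after the values were seen. The labels do not say what same-numbered libraries share.

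Of 20 male-biased genes, 19 were tested at 2 months and 15 of these had a positive log2 fold change (median 0.67), with Susd4 as the 1 gene called. Susd4, a membrane regulator of complement, had 8.56, 7.10 and 7.10 CPM in wild-type and 34.6, 20.5 and 27.5 in the PPARγ-KO-labelled libraries (log2 fold change 1.86, standard error 0.191, edgeR adjusted p = 0.00309). With the replicate number as a block, 8 of the male-biased genes were called at 2 months, in a fit that called 817 of all 14573 genes tested. At 5 months 13 of 18 tested were positive (median 0.38) and 4 were called, all higher, where 18.4% of all genes tested were called and 8.9% called higher: Susd4 (log2 fold change 2.38), Slco1a1 (2.70), Cyp2d9, another cytochrome P450 (0.89), and Gstp1, a glutathione transferase (0.50), with edgeR adjusted p values of 5.30e-06, 0.0354, 0.00631 and 0.00259. Slco1a1 had 23.1, 16.5 and 16.5 CPM in wild-type and 186.9, 61.2 and 113.9 in the PPARγ-KO-labelled libraries at this time. The calls of Susd4 and Gstp1 at 5 months held under all 13 alternatives. That of Slco1a1 was lost without the filter and without any wild-type replicate or PPARγ-KO replicate 3 (edgeR adjusted p of up to 0.142), and that of Cyp2d9 in the fit of all 12 libraries (0.0547). The count of called male-biased genes at 5 months was 3 to 6 with 1 library left out, in fits that called 1593 to 3078 of all genes tested.

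Of 18 female-biased genes, 8 never had enough counts for a test, with a group mean of at most 0.526 CPM, and 9 were tested in the comparison of genotypes at each time. At 2 months their median log2 fold change was -0.42, and Tox, a nuclear factor, was called lower, with 11.2, 8.90 and 7.91 CPM in wild-type and 1.29, 3.82 and 2.31 in the PPARγ-KO-labelled libraries (log2 fold change -1.93, standard error 0.329, edgeR adjusted p = 0.0207). Leaving out wild-type replicate 2 or 3 or PPARγ-KO replicate 3 ended this call. The median was 0.66 at 5 months, and Cyp2b9 (log2 fold change 1.63, standard error 0.164, edgeR adjusted p = 8.77e-04) and Cyp2b13 (2.93, standard error 0.349, edgeR adjusted p = 0.00574) were called higher, 2 of the 9 tested against the same background. Cyp2b9 had 40.3, 54.8 and 54.6 CPM in wild-type and 131.6, 180.2 and 147.4 in the PPARγ-KO-labelled libraries. At 5 months called genes of both lists were therefore higher in the PPARγ-KO-labelled libraries. Without PPARγ-KO replicate 1, 6 female-biased genes were called, in a fit that called 2246 of all 14410 genes tested. The calls of both Cyp2b genes were lost in the fit of all 12 libraries. The Mup, Cyp4a12, Gstp and Cyp2b genes have near-identical relatives with which reads can be shared, so their counts are uncertain. Over time, 2 male-biased genes were called higher and 3 lower in wild-type and 5 higher and 5 lower in the PPARγ-KO-labelled libraries, and of the female-biased genes 2 were called higher and 1 lower in wild-type and 1 higher in the PPARγ-KO-labelled libraries. Among all genes tested, 46.4% were called over time in wild-type and 44.9% in the PPARγ-KO-labelled libraries. Of the male-biased genes, Mup20, a major urinary protein, rose in both (log2 fold changes 1.41 and 1.57), as did Gstp1 (0.52 and 0.65). In wild-type Cyp4a12a (-2.06) and Susd4 (-1.74) fell. Susd4 was also called lower in the PPARγ-KO-labelled libraries. All 13 alternatives kept that call, with log2 fold changes from -1.40 to -1.04. Slco1a1 was called lower in both genotypes. Its call was lost in 7 of 13 alternatives in wild-type and in 6 of 13 in the PPARγ-KO-labelled libraries. These falls of Susd4 and Slco1a1 are named outside the rule given below. Of the female-biased genes in wild-type, Cyp3a16 rose by 5.03, from a mean of 0.0868 to 3.05 CPM. Atp6v0d2 rose there by 1.14 and Tox fell by 1.18.

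**Figure D5:**
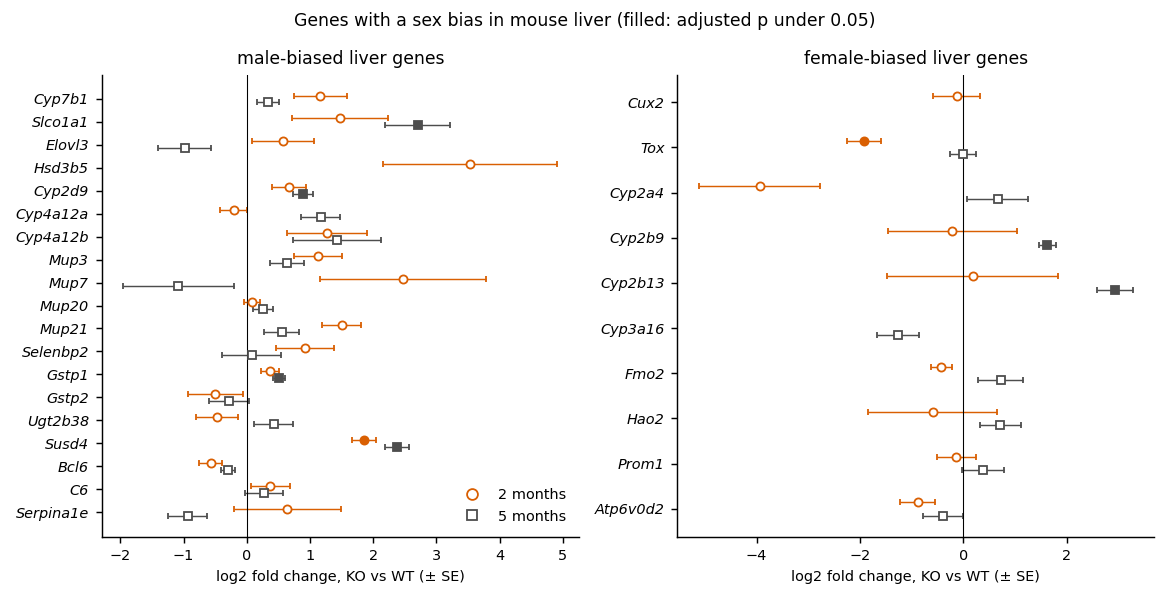
Log2 fold change with its SE (horizontal axis) between the PPARγ-KO-labelled libraries and wild-type for the tested male-biased (left) and female-biased (right) liver genes, at 2 months (circles) and 5 months (squares); filled symbols have an edgeR adjusted p under 0.05. At 5 months 4 male-biased and 2 female-biased genes are filled, all to the right of 0.

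Of the other genes of the IGF system, at most 1 was called between the genotypes at either time. At 2 months none of 12 tested was called by edgeR or by DESeq2, with 2 at an unadjusted p under 0.05 (median log2 fold change -0.15). The most abundant of them, Igfbp4, a further binding protein, and Ctsd, the protease cathepsin D, had log2 fold changes of 0.12 (edgeR adjusted p = 0.611) and -0.20 (0.217). At 5 months 1 of 11 was called, where 18.4% of all genes tested were. This was Ctsd, with 431.4, 468.8 and 468.9 CPM in wild-type and 319.1, 361.9 and 323.5 in the PPARγ-KO-labelled libraries (log2 fold change -0.44, standard error 0.0736, edgeR adjusted p = 0.00121). Ctsd is also abundant in the lysosomes of macrophages, whose markers are given above. Over time Insr, the insulin receptor, fell in wild-type by 0.65 (log2, edgeR adjusted p = 5.07e-05) and in the PPARγ-KO-labelled libraries by 0.51 (edgeR adjusted p = 1.14e-04), in a list with 3 of 11 genes called higher and 3 lower in wild-type and 3 higher and 1 lower in the PPARγ-KO-labelled libraries. Igf1r, the IGF1 receptor, fell in wild-type by 0.83 (edgeR adjusted p = 0.00765). The shares of all genes called over time were 46.4% in wild-type and 44.9% in the PPARγ-KO-labelled libraries.

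Among 23 other genes of cytokine receptors and JAK-STAT signaling, none was called at 2 months by edgeR or DESeq2, with 3 at an unadjusted p under 0.05 (median log2 fold change -0.03), and Jak1 and Ptpn11, the most abundant, had log2 fold changes of 0.06 and -0.08. At 5 months 4 of the 23 were called, near the 18.4% of all genes tested. Prlr, the prolactin receptor and a relative of Ghr, was higher, with 29.1, 33.4 and 35.4 CPM in wild-type and 43.2, 62.4 and 59.3 in the PPARγ-KO-labelled libraries (log2 fold change 0.76, standard error 0.145, edgeR adjusted p = 0.00909), a call lost without wild-type replicate 1 (0.0531). The phosphatases Ptpn6 and Ptpn1, which remove phosphate from JAK kinases and their receptors, and Jak3, a kinase of blood cells, were lower, with log2 fold changes of -0.57, -0.45 and -0.63 and edgeR adjusted p values of 2.25e-04, 4.81e-04 and 7.09e-04. Ptpn6 and Jak3 are known for their roles in blood cells, and the macrophage markers given above were lower in the same libraries, a part that was not tested. Over time 4 of the 23 were called higher and 5 lower in wild-type, and 1 higher and 7 lower in the PPARγ-KO-labelled libraries. These counts stand against 46.4% of all genes called over time in wild-type and 44.9% in the PPARγ-KO-labelled libraries. The adaptor Gab1 fell in both, by 0.79 and by 0.54 on the log2 scale, and the adaptor Grb2 rose in both, by 0.52 and 0.50.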

How the data were processed

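RNA was extracted from livers with TRIzol and sequenced by a company. The authors deposited, for each of the 12 libraries, whole-number counts of reads per gene that had not been normalized. The paper's methods name STAR and the submitters' processing notes list HISAT2, both with mm10. The counting program, annotation release and use of strand are not given in the sources used here. From the counts, log2 fold changes were fitted with edgeR 4.0.16 in R 4.3.3: TMM scaling, filterByExpr, robust quasi-likelihood F-tests, two-sided, with Benjamini-Hochberg adjustment over all genes tested. Each genotype or time comparison used its own 6 libraries, and the difference between times all 12. The SE is the log2 fold change divided by the square root of F. The 95% intervals are the log2 fold change plus and minus 1.96 SE. They take no account of the degrees of freedom of the F-test and are too narrow for so few libraries. Some therefore exclude 0 where the p of the F-test is above 0.05. With 3 libraries per group, a p-value sets the difference between groups against the spread between libraries, which the fit moderates across genes. Normalized CPM used the TMM factors of all 12 libraries. CPM per kb used the gene lengths in the deposited tables.

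The 10 genes and all lists (other IGF system genes, other cytokine receptor and JAK-STAT genes, male-biased and female-biased liver genes, and markers of 8 cell types) were chosen with earlier results of these data known. Besides the 10 genes and Pparg, genes were to be named by a rule for each list other than the cell type markers. In each comparison these were its up to 4 called genes of smallest adjusted p, or, with none called, its 2 most abundant. Of these, the text gives those that bear on the axis, and genes of these lists named outside this rule are said to be so. The cell type markers had no such rule and were named by their results. Libraries with the same replicate number correlated, group means removed, at 0.218, 0.323 and 0.14 at 2 months over the 5000 most abundant genes. The main fits and the permutation tests took no account of the number, which entered only as the block of an alternative fit. The labels do not say what it marks. No pair of libraries agreed within sampling noise (chi-square per gene 2.441 to 31.676). Alternatives were DESeq2 1.42.0, its size factors, scaling by library size alone, omitting the filter, a minimum of 10 counts in each library, adjusted p under 0.1, unadjusted p under 0.05 with a 1.3-fold change, the replicate block, 1 fit of 12 libraries, and each library left out. The code was tested on simulated data. False calls there were more frequent than the threshold allows, so calls just under it are uncertain. Fewer changed genes were recovered for the difference between times than for the other fits. The bound for passing that part of the test was set after its result was seen.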

Additional observations from a re-analysis of the deposited data

Results flagged for a closer look

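The genotype effect differed between 5 and 2 months in the fit of all 12 libraries for 3 genes named here. For Igfbp2 the log2 difference was -2.19 (edgeR adjusted p = 0.0453). For the phosphatase gene Ptpn6 it was -0.53 (standard error 0.117, edgeR adjusted p = 0.0337). This call was lost in 8 of 18 alternatives, with an edgeR adjusted p of up to 0.106: with library size alone, without replicate 3 of wild-type or replicate 1 or 3 of PPARγ-KO at 2 months, and without replicate 2 or 3 of wild-type or replicate 1 or 3 of PPARγ-KO at 5 months. For Pparg it was 0.62 (standard error 0.145, edgeR adjusted p = 0.0432), from log2 fold changes of 0.52 at 2 months and 1.15 at 5 months. It was lost in 10 of 18 (edgeR adjusted p of up to 0.122), with library size alone and without any one library but wild-type replicate 1 or PPARγ-KO replicate 2 at 2 months or PPARγ-KO replicate 3 at 5 months. In the same fit 5 of the 8 macrophage markers (Clec4f, Vsig4, Timd4, Csf1r and Cd5l) had a lower genotype effect at 5 than at 2 months, with log2 differences from -2.27 to -0.92. There 0.912% of all genes tested were called lower. The call of Timd4 was lost without wild-type replicate 2 or 3 at 5 months, and the other 4 held under all 18 alternatives. The count of Igfbp2 per 100 counts of Igf1 was higher in all 3 PPARγ-KO-labelled libraries than in any wild-type library at 2 months and lower at 5 months. The difference between the PPARγ-KO-labelled libraries and wild-type shifted by -85.3 counts per 100 between the times, and this shift was not tested.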

How the results depend on the processing

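Of 340 values of the 10 genes recomputed under another setting, 309 kept their direction and side of the threshold, 6 lost the call, 21 gained one and 4 turned. The turned values were near 0: Jak2 at 2 months (-0.0315) and in wild-type over time (-0.029) with library size alone, and Igfbp3 in the difference between times with DESeq2 (-0.0031) and without the filter (-0.0017).

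The number of the 10 genes called at 2 months, 1, was 2 with DESeq2, 4 without the filter, 3 with all 12 libraries in one fit, and 0 to 4 with 1 library left out. At 5 months the 5 became 3 with an unadjusted p and a 1.3-fold change, and 2 to 6 without 1 library. In wild-type over time the 3 became 6 with library size alone, 5 with the replicate block, and 1 to 5 without 1 library. In the PPARγ-KO-labelled libraries over time the 5 became 7 with DESeq2, 6 without the filter, with the replicate block or with all 12 libraries in one fit, and 3 to 6 without 1 library, and in the difference between times the 1 became 0 to 1. With 1 library left out, the calls among all genes tested were 117 to 1577 at 2 months and 1593 to 3078 at 5 months. They were 5357 to 6968 in wild-type over time and 5374 to 6024 in the PPARγ-KO-labelled libraries over time. In the difference between times they were 83 to 567. With the replicate block, 6941 of 14491 genes tested were called in wild-type over time and 6025 of 14478 in the PPARγ-KO-labelled libraries over time. Calls among all genes were not counted with DESeq2, with library size alone, without the filter or with all 12 libraries in one fit. The numbers of the 10 genes called under those settings therefore cannot be set against a share of all genes. The cause of these shifts was not tested.

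With 1 library left out, log2 fold changes ran from -0.0709 to 0.17 for Jak2, -0.0959 to 0.72 for Cish and -0.0188 to 0.36 for Igf1 at 2 months, from -0.0897 to 0.0196 for Igf1 at 5 months, from -0.0643 to 0.17 for Jak2 and -0.30 to 0.0785 for Socs2 in wild-type over time, from -0.17 to 0.0504 for Stat5a in the PPARγ-KO-labelled libraries over time, and from -0.11 to 0.039 for Ghr and -0.16 to 0.15 for Igfbp3 in the difference between times.

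At 2 months the replicate block changed the call of none of the 10 genes and raised the calls among all genes from 519 to 817. Same-number correlations at 5 months were -0.0806, -0.0586 and -0.172. Over time they were 0.239, 0.186 and 0.0198 in wild-type, where replicate 2 at 2 months and replicate 3 at 5 months also correlated at 0.266. In the PPARγ-KO-labelled libraries over time they were -0.0394, 0.216 and -0.0216. In these comparisons the block took the call of Stat5a at 5 months (edgeR adjusted p = 0.0754) and gave one to Igf1 (0.026) and Igfals (0.00921) in wild-type over time and to Igfbp3 (0.00921) in the PPARγ-KO-labelled libraries over time. Cish, with 17 to 42 counts per library at 5 months, is the gene most limited by depth.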
